A study of Mus musculus with 6 samples.

Results

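The 35 genes described here are those listed for mitochondrial fatty acid oxidation, as measured in mouse liver. Besides the mitochondrial machinery they include *Slc22a5*, the carnitine importer of the cell surface. They also include closely related matrix enzymes that break down branched-chain amino acids, propionate and medium-chain acids. They were selected by gene symbol from a list drawn up with earlier results of these data known, although the rule itself uses no measured value, and all 35 were found among the 24421 genes of the table. The libraries came from livers of 6 male mice, 3 WT and 3 of their *Pai-1*+/- littermates, of the strain given as C57BL/6 in the sample labels and as C57BL/6 J in the study's text. Both groups were 21 weeks old by the sample labels, against a slightly younger age in the study's text, and ate standard chow without restriction and received no drug, so that the groups differed by genotype alone as far as the labels state. The product of *Pai-1* is a secreted serine protease inhibitor that restrains the formation of plasmin, the enzyme that dissolves fibrin clots. The heterozygotes carry 1 altered allele in every cell, which is not a liver-specific change.

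The study set the genotypes side by side. No genotype comparison is given here, because the columns of the table of counts per animal are headed by animal numbers that match no sample label, and no column was given to a genotype by its order or its values. The quantity that remained was the authors' mean normalized count, the average over all libraries of both genotypes of the read count divided by a size factor that adjusts for depth. This is 1 number per gene, with no value per mouse, no error and no n, so every value below is a level averaged over WT and *Pai-1*+/- livers and none of them is a difference between genotypes or a test of one. For the same reason the genotype labels could not be checked against expression.

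Fatty acids reach the mitochondrial matrix as carnitine esters and are then shortened in repeated rounds of dehydrogenation, hydration, a further dehydrogenation and thiolysis, each round releasing acetyl-CoA. The acyl-CoA dehydrogenases that open each round pass their electrons through a flavoprotein relay to the respiratory chain. In liver the pathway supplies energy and acetyl-CoA for ketone bodies, and many of its genes are known targets of the fatty acid receptor PPARα, which binds DNA as a partner of RXR at a direct repeat of the hexamer AGGTCA.

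Of the 35 genes, 34 had a mean normalized count above 10, the level above which genes were ranked, and the exception was *Cpt1b*. A mean above 10 was reached by 12971 genes, or 53.1% of the table, and percentiles below refer to those genes. The median of the 35 oxidation genes was 5718 normalized counts, at percentile 94.5, against a median of 440.4 over all ranked genes. Summed over the 35 genes, the mean normalized counts came to 304197, or 1.01% of the sum over the whole table of 30045982.

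**Figure D1:**
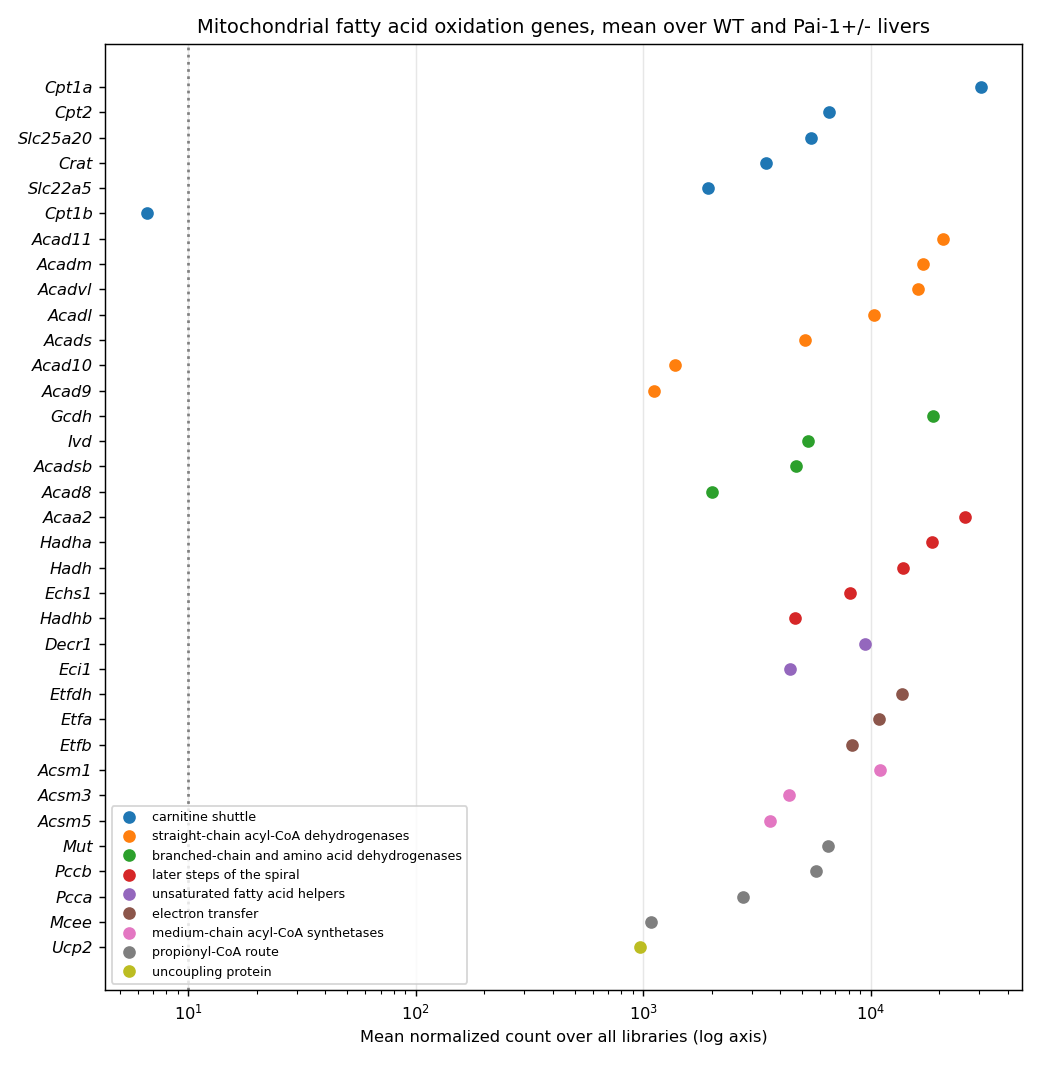
Mean normalized count over all libraries of both genotypes (horizontal log axis) for each of the 35 genes, coloured by role and ordered by level within a role, with 1 point per gene and no error bar because 1 mean is given per gene. The dotted line marks a mean of 10, and *Cpt1b* at 6.58 is the 1 gene left of it, while the others lie between 970.1 (*Ucp2*) and 30470.1 (*Cpt1a*).

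Sequencing of whole transcripts gives long transcripts more reads, so genes are compared with each other per kilobase. Length was taken as that of the longest annotated transcript, and also as the union of all exons, the median coding transcript, the longest coding transcript and the coding sequence, which makes 5 measures. Per kilobase of longest transcript, the median of the oxidation genes was 2465 against 129 for all ranked genes with a gene model. Per kilobase of coding sequence it was 4159 against 308.5. Between 23 and 25 of the 35 genes lay above percentile 90 per kilobase under the 5 measures, and 1 at most, *Acaa2*, lay above percentile 99. Most of the genes were thus among the abundant hepatic transcripts without being among the most abundant. The choice of length moved a single gene's value more than 1.5-fold for 33 of the 35 genes. The median spread was 2.65-fold between the lowest and the highest measure. An order per kilobase is therefore stated below only with that range or where all 5 measures share it. Counts that are not divided by length are given as counts and fix no such order. For 9 genes the longest annotated transcript is not a coding one. The median coding transcript counts annotated fragments and can be shorter than the coding sequence. It was 1297.5 against 2319 bases for *Cpt1a* and 1010 against 1191 for *Acaa2*, and it gave the highest value per kilobase of both.

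**Figure D2:**
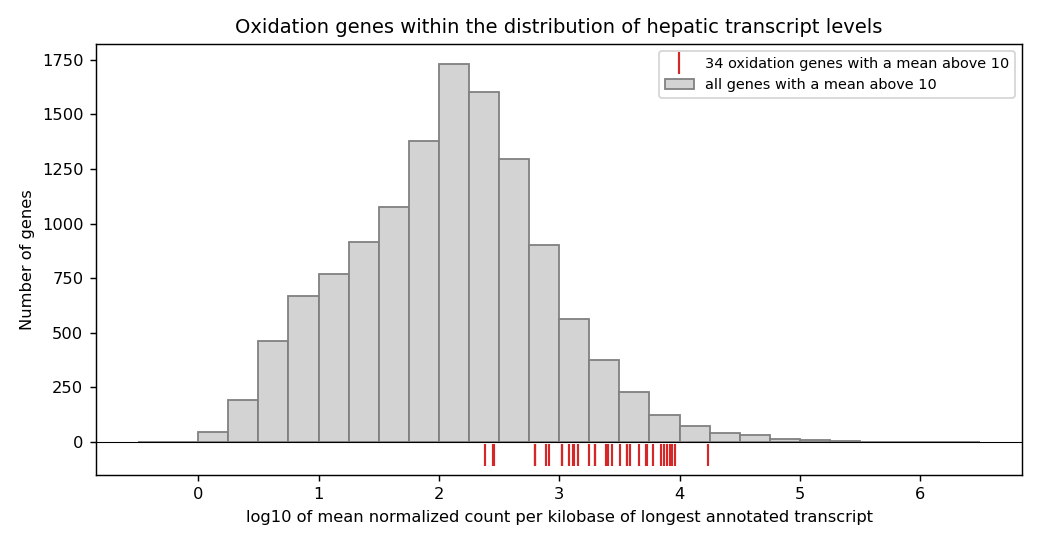
Histogram of log10 mean normalized count per kilobase of longest annotated transcript (horizontal axis) for the 12499 ranked genes with a gene model (vertical axis, number of genes), with a red tick below the axis for each of the 34 oxidation genes with a mean above 10. The median of the ranked genes with a gene model was 129 per kilobase, and the ticks lie between 243.2 (*Ucp2*) and 17123 (*Acaa2*), all above that median.

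Under all 5 measures 6 genes were among the first 10 by level per kilobase, namely *Acaa2*, *Gcdh*, *Etfa*, *Etfb*, *Acadm* and *Cpt1a*, and 6 were among the last 10, namely *Cpt1b*, *Acad9*, *Acad10*, *Ucp2*, *Acad8* and *Slc22a5*. *Acaa2* ranked first and *Cpt1b* last under every measure.

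**Figure D3:**
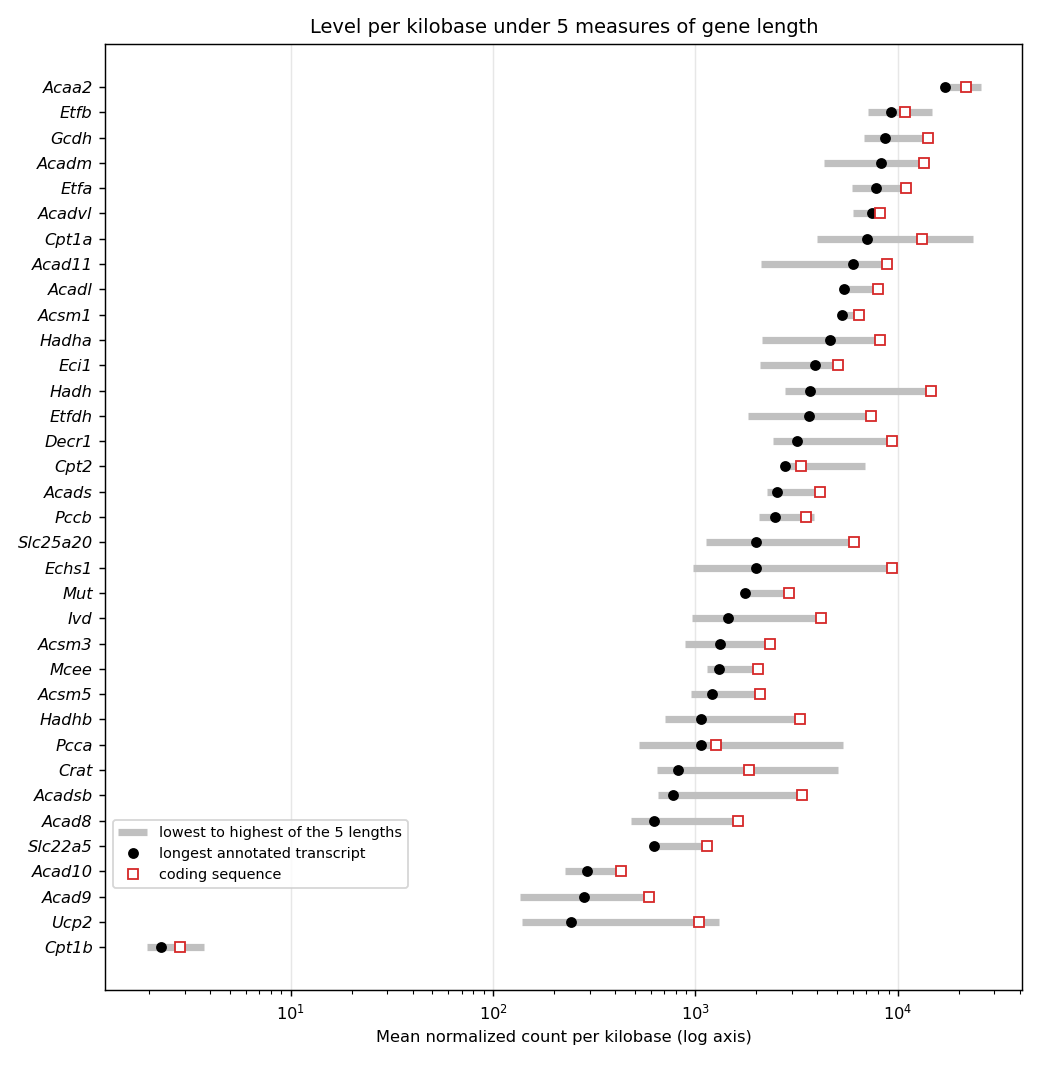
Mean normalized count per kilobase (horizontal log axis) of each of the 35 genes, ordered by the value for the longest annotated transcript (black point), with the value per kilobase of coding sequence (red square) and the range over the 5 measures of length (grey bar, which is not an error). *Acaa2* lies highest, from 17123 to 25701, and *Cpt1b* lowest, from 1.95 to 3.73.

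The carnitine shuttle moves long-chain acyl groups across the mitochondrial membranes, and its 6 genes held 15.7% of the summed count of the oxidation genes. *Cpt1a*, the liver isoform of carnitine palmitoyltransferase 1 and the malonyl-CoA-sensitive entry step, had the highest mean normalized count of the 35 genes at 30470.1 and held 63.6% of the shuttle's counts. Per kilobase its level was 7058 for the longest transcript, from 3987 to 23484 over the 5 measures. *Cpt1b*, the isoform of muscle and brown fat, had a mean normalized count of 6.58. Per kilobase *Cpt1a* was 3106-fold above *Cpt1b*, with a range of 2043-fold to 6289-fold over the measures. A readthrough gene annotated over *Cpt1b*, *Gm44502*, shares 92.1% of the 75-base windows of its transcript. No mean is listed for *Gm44502*, and the annotation used for counting is not given in the sources used here. Whether reads there were withheld from *Cpt1b* is therefore not known. The skeletal muscle markers *Ckm*, *Acta1*, *Myh4* and *Myh1* lay between 0.69 and 3.24 and *Mylpf* at 15.7 normalized counts, and *Ucp1*, which defines brown fat, at 0.173.

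*Cpt2*, the inner-membrane enzyme that returns the acyl group to coenzyme A, had a mean normalized count of 6535. *Cpt1a* exceeded it 2.56-fold per kilobase of longest transcript and 1.46-fold to 3.97-fold over the 5 measures. *Slc25a20*, the translocase that exchanges acylcarnitine for carnitine, had 5483 normalized counts. *Crat*, which acts on short-chain acyl groups, and *Slc22a5*, the carnitine importer of the cell surface, had 3465 and 1916 normalized counts. Per kilobase of median coding transcript *Crat* lay above *Slc25a20*, at 5066 against 3075, so no order of these 2 is given. For *Slc22a5*, 18.0% of the windows are shared with its neighbour *Slc22a21*, which had a mean of 21.6. Of the genes that set the malonyl-CoA level, *Acacb*, which makes it at the mitochondrion, had 1556 and *Mlycd*, which removes it, 2763 normalized counts.

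The 7 straight-chain acyl-CoA dehydrogenases and their relatives held 23.6% of the summed count, the most of any role. That share is not adjusted for length or for the number of genes in a role. The 5 genes of the later steps held 23.4%, and their median per kilobase of coding sequence was higher, at 9310 against 8017. Of the chain-length specialists, *Acadm* for medium chains had 16966 normalized counts, *Acadvl* for very long chains 16087, *Acadl* for long chains 10342 and *Acads* for short chains 5127. Per kilobase of longest transcript the same genes stood at 8288, 7420, 5398 and 2534. *Acads* was the lowest of these per kilobase under every measure, since its highest value, 4148, lay below the lowest value of each of the others, the nearest being 4336 for *Acadm*. *Acadl* was 0.651 times *Acadm* per kilobase of longest transcript, but the ratio ran from 0.415 to 1.19 over the 5 measures, so these neighbours have no fixed order here.

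*Acad9*, known mainly as an assembly factor of respiratory complex I, had 1111 normalized counts. Its closest relative *Acadvl* was 26.2-fold higher per kilobase, with a range of 13.8-fold to 44.1-fold. *Acad10* and *Acad11*, family members that carry an added kinase-like domain, stood far apart, at 1378 and 20703 normalized counts. Per kilobase *Acad11* exceeded *Acad10* 20.6-fold, from 9.31-fold to 20.6-fold over the measures. Some of the *Acad10* sequence, 14.6% of the windows, recurs in the adjacent paralogue *Acad12*, which had 211 normalized counts, and 12.6% of the *Acad11* windows recur mostly in *Ackr4*, which overlaps it on the other strand and had 18.8.

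The dehydrogenases of branched-chain and amino acid breakdown held 10.1% of the summed count. *Gcdh*, which oxidizes glutaryl-CoA from lysine and tryptophan, had 18835 normalized counts and held 61.1% of this group's sum. Its level per kilobase was 8692 for the longest transcript, and it ranked between 3 and 5 among the 35 genes under the 5 measures. *Ivd* of the leucine route had 5291, *Acadsb* of the isoleucine route 4688 and *Acad8* of the valine route 2000 normalized counts. *Acadsb* was lower than *Acads* per kilobase under every measure, at 0.281 to 0.810 times its level. The enzymes that follow *Acad8* in valine breakdown, *Hibch* and *Hibadh*, had 3055 and 9487 normalized counts, and those that follow *Ivd*, the carboxylase subunits *Mccc1* and *Mccc2* and the hydratase *Auh*, had 1548, 2472 and 1124.

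The later steps of the spiral held 23.4% of the summed count. *Acaa2*, the thiolase that releases acetyl-CoA, was the most abundant of the 35 genes per kilobase, at 17123 for the longest transcript and 21795 for the coding sequence, with a mean normalized count of 25958. *Hadh*, the hydroxyacyl-CoA dehydrogenase for short and medium chains, had 13810 normalized counts, and the short-chain hydratase *Echs1* had 8100. Their levels per kilobase depended strongly on the length used, from 2775 to 14661 for *Hadh* and from 977.5 to 9310 for *Echs1*, and their longest annotated transcripts are of the retained intron class. Of other genes of these steps, *Hsd17b10*, a second short-chain dehydrogenase, had 6632 and *Acat1*, the acetoacetyl-CoA thiolase, 16646 normalized counts.

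*Hadha* and *Hadhb* encode the alpha subunit (hydratase and long-chain dehydrogenase) and the beta subunit (thiolase) of the mitochondrial trifunctional protein. The genes lie head to head on chromosome 5 (GRCm38), *Hadha* on the minus strand at chr5:30118304-30155162 and *Hadhb* on the plus strand at chr5:30155248-30184593, and 85 bases separate their outermost annotated exons. The stretch between them is shown because the subunits of 1 complex start from it in opposite directions. It was read from the RefSeq promoter window of *Hadhb* on GRCm38.p6, plus strand, with *Hadha* to its left and *Hadhb* to its right, and no part is capitalized because the hexamer AGGTCA is not in it on either strand.
*Hadha*-*Hadhb*, chr5:30155163-30155247: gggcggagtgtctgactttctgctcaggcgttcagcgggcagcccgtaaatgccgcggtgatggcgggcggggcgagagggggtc
The stretch holds 69.4% G or C and 9 CpG dinucleotides.

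The deposited means of the subunits were unequal, at 18587 normalized counts for *Hadha* and 4667 for *Hadhb*. *Hadha* was 4.35-fold higher per kilobase of longest transcript and 2.02-fold to 4.35-fold higher over the 5 measures. The longest annotated *Hadhb* transcript is of the retained intron class, at 4388 bases against 2048 for its longest coding transcript. Per kilobase of longest coding transcript the ratio was 2.03, and per kilobase of coding sequence it was 2.48. However, 57.2% of the 75-base windows of the *Hadhb* transcript, a window being as long as a read, also occur in the processed pseudogene *Gm13910* on chromosome 2, against 0.0254% of the *Hadha* windows that occur in any other gene. When each count was divided by the number of windows not found at another locus, *Hadhb* was the higher of the pair at 1.17 times *Hadha*. That division assumes that reads of shared windows were left out, and whether the authors' counting did so is not given in the sources used here. The order of these subunits is therefore not fixed by the deposited means.

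**Figure D4:**
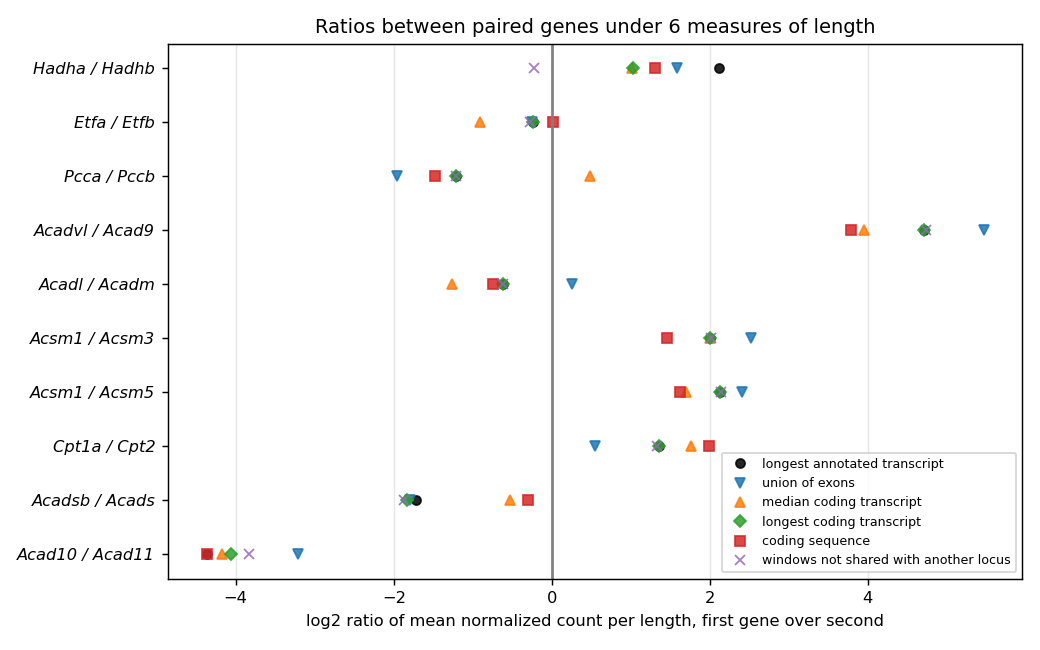
The log2 ratio of mean normalized count per length (horizontal axis, first gene over second) for 10 gene pairs under 5 measures of transcript length and for windows not shared with another locus, with 1 symbol per measure, a vertical line at equal levels and no error bars. *Cpt1a* over *Cpt1b* is left out for scale at 11.6. For *Hadha* over *Hadhb* the cross lies at -0.23 while the other symbols lie at 1.02 and above, and the symbols of *Etfa* over *Etfb*, *Pcca* over *Pccb* and *Acadl* over *Acadm* fall on both sides of the line.

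The same kind of sharing was seen in 3 genes at over 10% of windows when only genes at another place were counted, which were *Hadhb*, *Slc22a5* and *Acad10*. When overlapping genes at the same place were counted too, it was seen in 9 of the 35 genes, including *Etfb* with 66.3% (*Gm45233*), *Acsm3* with 30.8% (*Eri2*), *Acadvl* with 14.0% (*Dvl2*) and *Acad9* with 11.9%. For 21 genes no window was shared with any gene. Outside the pathway, the hepatocyte enzyme *Ass1*, which shares 46.9% of its windows with the pseudogene *Gm5424*, had 34.5 normalized counts. *Hba-a1* and *Hbb-bs*, which share 62.2% and 64.3% with their paralogues, were listed at 0, while the erythroid gene *Alas2* had 2136. Windows not shared with another place numbered 861 of 1622 for *Ass1*, 236 of 625 for *Hba-a1* and 198 of 554 for *Hbb-bs*. Whether sharing had a part in these low values was not tested.

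The helpers of unsaturated fatty acid oxidation held 4.54% of the summed count. *Decr1*, the dienoyl-CoA reductase, had 9392 and *Eci1*, the enoyl-CoA isomerase, 4412 normalized counts. Per kilobase of longest transcript their order was the opposite, 3174 for *Decr1* and 3880 for *Eci1*, and per kilobase of coding sequence it was 9345 and 5088, so no order is given. *Eci2*, the isomerase also found in peroxisomes, had 8285 normalized counts, and *Nadk2*, which supplies the mitochondrial NADPH that *Decr1* uses, 6567.

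Electron transfer flavoprotein, built from the alpha subunit *Etfa* and the beta subunit *Etfb*, collects electrons from the dehydrogenases, and *Etfdh* passes them to ubiquinone. These 3 genes held 10.8% of the summed count, with 10914, 8263 and 13690 normalized counts. The subunit genes were close to each other per kilobase of coding sequence, at 10924 for *Etfa* and 10801 for *Etfb*. Over the 5 measures the ratio of *Etfa* to *Etfb* ran from 0.533 to 1.01. *Etfdh* was lower than both per kilobase under every measure, with values from 1824 to 7408. The *Etfb* value carries the limit of shared windows given above. No mean is listed for *Gm45233*, so whether that gene drew reads from *Etfb* is not known.

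The medium-chain acyl-CoA synthetases activate medium-chain acids inside the matrix and held 6.24% of the summed count. *Acsm5*, *Acsm1* and *Acsm3* lie in that order on the plus strand of chromosome 7. Between them are 61474 and 98407 bases, and genes outside the list that may lie there were not examined. *Acsm1* was the highest of the 3 at 11023 normalized counts, against 4359 for *Acsm3* and 3608 for *Acsm5*. Its level per kilobase was 4.0-fold that of *Acsm3*, with a range of 2.75-fold to 5.72-fold, and 4.37-fold that of *Acsm5*, with a range of 3.08-fold to 5.32-fold. *Acsl1*, a long-chain acyl-CoA synthetase of the outer membrane and the endoplasmic reticulum, had 74217 normalized counts, and *Acsl5* had 10252.

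The propionyl-CoA route converts the end product of odd-chain and branched-chain oxidation to succinyl-CoA and held 5.27% of the summed count. The carboxylase subunits *Pcca*, which carries biotin, and *Pccb* had 2755 and 5718 normalized counts. *Pcca* was 0.431 times *Pccb* per kilobase of longest transcript, and 0.256 to 1.39 times over the 5 measures. The measure that reversed the order was the median coding transcript, which counts annotated fragments as transcripts. *Mut*, the cobalamin-dependent mutase that ends the route, had 6482 and the epimerase *Mcee* 1085 normalized counts, and the cobalamin-handling genes *Mmaa* and *Mmab* had 409.2 and 545.6. *Ucp2*, a carrier of the inner membrane named for uncoupling, had 970.1 normalized counts and was among the last 10 genes per kilobase under every measure.

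Of the 25 other genes of the pathway that were listed, 25 had a mean above 10, the lowest being *Acss1* at 18.2 normalized counts. Their median was 2763, at percentile 88.3. Among the regulators in that list, *Ppara*, which encodes PPARα, had 9756 normalized counts, its coactivator gene *Ppargc1a* 396.2 and *Pdk4*, a kinase that restrains pyruvate oxidation, 1547.

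Promoter windows of RefSeq, from 250 bases before to 50 after an annotated start on GRCm38.p6, were at hand for 29 of the 35 genes in 30 windows, and not for *Acaa2*, *Acad9*, *Cpt1b*, *Crat*, *Decr1* and *Mut*. The hexamer AGGTCA was found on either strand in 7 of the 30 windows, or 23.3%, belonging to 6 genes, against 16.3% of all 32851 windows of that length. A direct repeat of the hexamer with 1 base between copies was found in 0 of the 30 windows and in 13 of all windows, or 0.0396%, as an exact match. With exact matches that rare, 0 of 30 cannot show whether these genes carry such an element, and inexact copies or copies outside the windows were not sought. The median GC content was 58.5% in the windows of the oxidation genes and 52.7% in all windows, and the median ratio of observed to expected CpG was 0.677 and 0.384. The set of all windows was not limited to genes with a mean above 10. Whether these values differ from those of other expressed genes was therefore not tested.

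The following stretches are shown because they hold the hexamer at 4 genes that span the entry step, the chain-length specialists and the synthetases. Each is written along its gene's own strand, with up to 30 bases on each side and the match in capitals, which reads TGACCT where the hexamer lies on the opposite strand.
*Cpt1a*, plus strand, chr19:3323177-3323242: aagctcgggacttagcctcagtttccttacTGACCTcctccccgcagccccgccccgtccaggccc
*Acadvl*, minus strand, chr11:70015480-70015545: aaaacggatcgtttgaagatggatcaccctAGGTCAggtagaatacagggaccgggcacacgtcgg
*Acadm*, minus strand, chr3:153944857-153944893: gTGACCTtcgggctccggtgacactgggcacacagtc
*Acsm1*, plus strand, chr7:119617675-119617740: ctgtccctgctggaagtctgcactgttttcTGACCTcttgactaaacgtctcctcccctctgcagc
The match begins at position -94 from the RefSeq start in *Cpt1a*, -87 in *Acadvl*, -249 in *Acadm* and -107 in *Acsm1*. For *Cpt1a* and *Acsm1* that start is an internal one, and the stretch lies inside the GENCODE bounds of the gene. Those bounds begin at chr19:3322334 and chr7:119607026. The other genes with a match were *Echs1* and *Pcca*. These are letters found in a window and no binding was measured in these samples.

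The labelled tissue was checked against its markers. The hepatocyte genes *Alb*, *Apoa1*, *Cps1*, *Apoa2*, *Ttr* and *Tat* had between 56732 and 2155546 normalized counts, with *Ass1* the exception given above. Markers of the other cells of liver were also present, with 5 Kupffer cell genes from 173 to 2374, 5 endothelial genes from 204.6 to 1273, 5 stellate cell genes from 134.9 to 4160 and 4 cholangiocyte genes from 25.8 to 268.2. Lymphocyte genes lay between 5.2 and 38.6, neutrophil genes between 8.76 and 71.5 and adipocyte genes between 0.866 and 7.87. In whole liver, fewer cells of a type and less RNA per cell cannot be told apart, and the part of each cell type in the levels above was not tested.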

How the data were processed

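Liver mRNA from 3 WT and 3 *Pai-1*+/- mice was sequenced as single-end reads of 75 bases from KAPA mRNA libraries. The authors aligned reads to mm10 with STAR and ran DESeq2 in BaseSpace, and per the labels HOMER was also used. Versions, annotation, strand setting and the treatment of reads matching several loci are not given in the sources used here. The signal used is the authors' deposited average, across every library, of the size-factor-adjusted counts. The other columns of that table hold the authors' log2 fold change with its standard error, a test statistic, p-values and a status and were not used, since they are the study's own findings. The 6 columns of counts per animal were not used, as no label matches them, so depth per library, edgeR and DESeq2 fits, leave-one-out fits and all p-values were not computed.

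Means were divided by lengths from GENCODE M21 (GRCm38), where 96.4% of genes with a mean above 10 matched 1 gene model by symbol. Transcripts were compared in 75-base windows on both strands with all GENCODE transcripts. All 35 members are named, and other pathway genes beside a member of their step. The members and lists were chosen with earlier results of these data known. Values of a few listed genes are left out of the text. The planned identity between proteins was not computed, and GENCODE coding length replaced that from RefSeq proteins. Python 3.11.15, NumPy 2.4.6, pandas 2.3.3 and Matplotlib 3.10.9 were used, and the calculation of levels was tested on simulated data.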

Additional observations from a re-analysis of the deposited data

How the results depend on the processing

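The number of oxidation genes above percentile 90 per kilobase was 25 with the longest annotated transcript and between 23 and 27 with the other 4 lengths, without division by length and when ranked among all genes above 0. Of 66 alternative values of the 11 ratios between paired genes, 41 stayed within 1.5 times the value for the longest transcript, 20 moved further without turning and 5 turned. The log2 ratio of *Etfa* over *Etfb* turned from -0.24 to 0.0164 per coding sequence and to 0.40 without length, that of *Pcca* over *Pccb* from -1.21 to 0.48 with the median coding transcript, that of *Acadl* over *Acadm* from -0.62 to 0.25 with the union of exons, and that of *Hadha* over *Hadhb* from 2.12 to -0.23 per window not shared with another locus. The longest coding transcript, the coding length and the shared windows were added after the data were seen. No paired analysis was possible because the columns of counts per animal carry neither a genotype nor a replicate number. The planned fits by genotype and their alternatives, namely other normalizations, no filter on low counts, a replicate block and leaving out each mouse, were not run for that reason. The precision of the means is unknown, since depth per library was not used.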
